A study of Mus musculus with 30 samples.

Results

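The mitochondrial ribosomal protein genes are the nuclear genes whose products, with ribosomal RNA made inside the organelle, form the mitochondrial ribosome. They were taken here as every gene of the deposited log2 expression table whose symbol is Mrpl or Mrps followed by a number and, where present, a letter a, b or c. That rule found 78 of 13087 genes, 49 named for the large subunit (Mrpl) and 29 for the small subunit (Mrps). All 78 were also in the deposited count table and passed the filter on low counts, among 13008 genes tested.

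The mitochondrial ribosome translates the few mRNAs encoded by mitochondrial DNA, which specify core subunits of the respiratory chain and of ATP synthase. Its proteins are made in the cytosol, imported, and assembled on the large and small ribosomal RNAs with the help of dedicated assembly factors. Some of the proteins have counterparts in bacterial ribosomes, and the others are particular to mitochondria. The places and roles given here come from structures of pig and human mitochondrial ribosomes. They put the products of Mrps18a and Mrps30 in the large subunit in spite of their names, and they place that of Mrps36 outside the ribosome, since it is a subunit of the 2-oxoglutarate dehydrogenase complex. Counts, sums and medians given for the whole large or small subunit go by symbol, so these genes count there with the small subunit.

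RNA was sequenced from cultures of 4T1, a mouse mammary carcinoma cell line, in medium with vesicle-depleted serum. All cells received small extracellular vesicles (sEVs) from primary Ly6G+ neutrophils of wild-type BALB/c females, and the neutrophils had been kept for 48 h with the vehicle DMSO or with 10 µM 27-hydroxycholesterol (27HC), a cholesterol metabolite. After 48 or 72 h with DMSO-sEVs the attached cells were taken; after 27HC-sEVs, attached (adherent) and floating (non-adherent) cells were taken apart. Each of the 6 groups had 5 libraries, except non-adherent cells at 72 h with 4, because the authors removed replicate 5 as an outlier. Cells without vesicles are not among the groups, so each difference sets 27HC-sEVs against DMSO-sEVs, or non-adherent against adherent cells of the same treatment. The labels do not say whether replicates were separate cultures or vesicle preparations, so a p-value here reflects how much these libraries varied, and that variation may be technical in origin.

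Libraries held 18.8 M to 31.4 M reads assigned to genes, and expression is given as CPM, a gene's read count relative to the size of its library, which was scaled between libraries with TMM factors. The epithelial markers Krt7, Krt8, Krt14, Krt18, Krt19, Epcam and Cdh1 were all detected in every library, and their summed level ranged from 3840 to 4760 CPM in DMSO-sEV cells at 48 h and from 2220 to 2380 CPM in non-adherent cells at 72 h. The 12 neutrophil markers summed to between 0.0933 and 1.99 CPM, and the defining genes Csf3r, Mpo, Elane and Ly6g were at 0 in every library. The part of the epithelial markers' decline in the results that follow was not tested. The count table holds 0 mitochondrially encoded genes, so the mRNAs that this ribosome translates could not be set beside it.

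The promoters of 69 of the 78 genes were found in RefSeq's table for GRCm38.p6, which covers a window around each annotated start. Motifs of factors known to act on nuclear genes for mitochondrial proteins were searched as exact letters on both strands. The YY1 motif AAGATGGCG was in 8 promoters (11.6%), beside 3.58% of the promoters of 10254 genes of the expression table. The motif of GABPA, the DNA-binding subunit of nuclear respiratory factor 2, CCGGAAGT, was in 12 (17.4%), beside 9.2%. The palindromic NRF1 motif was in 3 (4.35%, beside 2.26%), the TATA box TATAAA in 5 (7.25%, beside 8.86%) and the E-box CACGTG bound by MYC in 5 (7.25%, beside 11.8%). The 4 promoters printed belong to genes with the largest decreases described below and hold the YY1 motif, the GABPA motif or both, shown in capitals within the window on GRCm38.p6. Mrps27 lies at chr13:99344536-99344835 on the plus strand, Mrpl42 at chr10:95501900-95502199 on the minus strand, Mrpl33 at chr5:31613701-31614000 on the plus strand and Mrps18c at chr5:100798509-100798808 on the plus strand.
Mrps27: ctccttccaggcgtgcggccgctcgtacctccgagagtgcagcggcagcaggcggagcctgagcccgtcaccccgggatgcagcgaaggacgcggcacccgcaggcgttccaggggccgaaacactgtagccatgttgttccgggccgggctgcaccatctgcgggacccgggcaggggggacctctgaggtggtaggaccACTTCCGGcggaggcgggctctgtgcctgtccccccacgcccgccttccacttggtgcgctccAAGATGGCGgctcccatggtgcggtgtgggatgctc
Mrpl42: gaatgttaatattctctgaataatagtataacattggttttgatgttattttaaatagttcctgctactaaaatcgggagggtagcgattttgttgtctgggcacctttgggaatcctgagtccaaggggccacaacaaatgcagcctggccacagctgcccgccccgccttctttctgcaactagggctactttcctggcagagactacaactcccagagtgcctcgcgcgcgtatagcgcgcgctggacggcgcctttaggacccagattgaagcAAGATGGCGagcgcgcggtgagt
Mrpl33: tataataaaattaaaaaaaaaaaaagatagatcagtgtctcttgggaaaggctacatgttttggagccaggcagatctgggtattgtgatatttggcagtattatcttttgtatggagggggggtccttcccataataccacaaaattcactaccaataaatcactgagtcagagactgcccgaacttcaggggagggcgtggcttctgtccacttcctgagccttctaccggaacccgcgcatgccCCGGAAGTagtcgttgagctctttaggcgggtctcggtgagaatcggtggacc
Mrps18c: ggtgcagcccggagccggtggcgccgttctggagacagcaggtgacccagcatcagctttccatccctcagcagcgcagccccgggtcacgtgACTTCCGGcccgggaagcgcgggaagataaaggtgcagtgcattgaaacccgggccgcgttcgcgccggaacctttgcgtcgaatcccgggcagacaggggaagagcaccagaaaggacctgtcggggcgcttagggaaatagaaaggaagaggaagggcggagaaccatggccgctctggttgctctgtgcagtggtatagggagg
In Mrps27 the GABPA motif stands upstream of the YY1 motif, and in Mrps27 and Mrps18c the GABPA motif is on the other strand, where it reads ACTTCCGG in the printed direction. No match says only that these letters are not in the window, and a match is not a measured binding site.

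Across the 6 groups, mRNA of the mitochondrial ribosomal proteins was highest in DMSO-sEV cells at 72 h and lowest in non-adherent 27HC-sEV cells at 48 h. The highest group mean lay in DMSO-sEV cells at 72 h for 74 of 78 genes, and the lowest in non-adherent cells at 48 h for 75 of 78, among them all 49 large-subunit genes. In these bulk samples fewer cells of a kind and less RNA per cell cannot be told apart. Summed over the large-subunit genes, the level was 2356 ± 239 CPM (SD, n = 5) in DMSO-sEV cells at 48 h and 3154 ± 720 CPM (n = 5) at 72 h. Adherent 27HC-sEV cells had 2097 ± 187 CPM (n = 5) and 1999 ± 150 CPM (n = 5) at 48 and 72 h, a difference smaller than either SD. Non-adherent cells had 1486 ± 83.7 CPM (n = 5) and 1636 ± 66.1 CPM (n = 4). The small-subunit genes stood in the same order, with 1150 ± 109 and 1490 ± 302 CPM in DMSO-sEV cells, 1045 ± 79.2 and 1003 ± 65.1 CPM in adherent cells, and 766.7 ± 36.8 and 853 ± 23.1 CPM in non-adherent cells at 48 and 72 h.

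**Figure D1:**
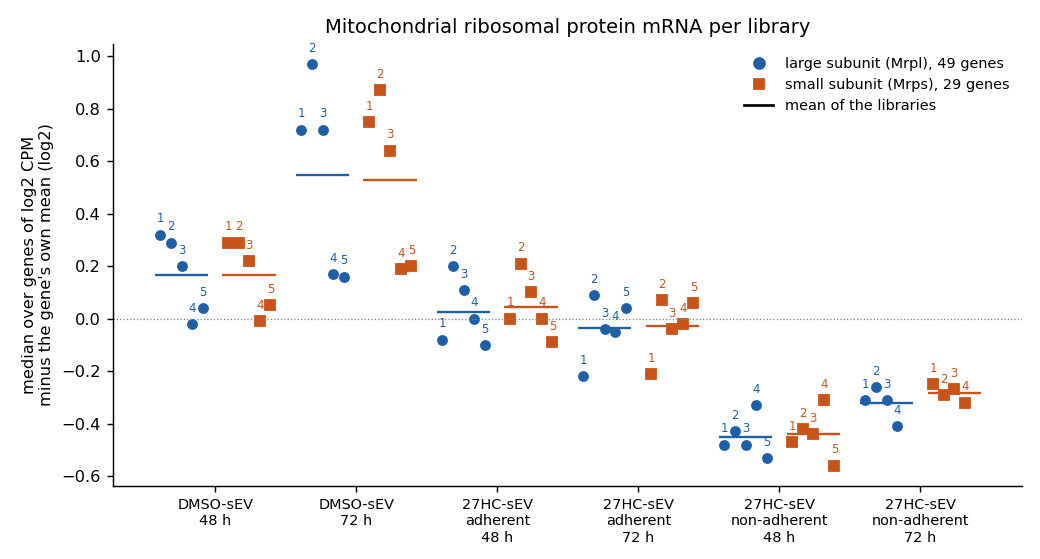
Median deviation of the 49 large-subunit genes (blue circles) and the 29 small-subunit genes (orange squares) from each gene's own mean, on the log2 CPM scale, for each of the 29 libraries; numbers are replicates and lines are group means. Replicates 1 to 3 of DMSO-sEV cells at 72 h lie above all other libraries, and the non-adherent libraries lie lowest.

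The DMSO-sEV libraries did not form 1 level. At 72 h the large-subunit genes stood at a median of 0.72, 0.97 and 0.72 above their own mean (log2) in replicates 1 to 3, and at 0.17 and 0.16 in replicates 4 and 5. At 48 h the same replicates stood at 0.32, 0.29 and 0.20, against -0.02 and 0.04. The small subunit showed the same split. So did other genes: at 72 h, the cytosolic ribosomal protein genes stood at 0.72, 0.95 and 0.68 in replicates 1 to 3 and at 0.08 and 0.07 in replicates 4 and 5, and the shortest of 4 length classes of all transcripts at 0.44, 0.53 and 0.38 against 0.08 and 0.07. The labels name no batch for these libraries. The counts and medians of the 78 genes in each comparison with DMSO-sEV cells are therefore given with all 5 replicates, with replicates 4 and 5 alone and with replicates 1 to 3 alone, and values of single genes and other lists mostly with all 5 and with replicates 4 and 5 alone.

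After 72 h, adherent 27HC-sEV cells had less mRNA than DMSO-sEV cells for nearly the whole set of mitochondrial ribosomal proteins. With a threshold of 0.05 on the p adjusted over all genes (edgeR's quasi-likelihood test), 75 of 78 genes fell and 0 rose, where 33.4% of all genes tested fell and 32% rose. That was 46 of 49 large-subunit and all 29 small-subunit genes. The median log2 change was -0.62 over the 78 genes, -0.60 for the large and -0.64 for the small subunit, beside 0.00 over all genes. For 50 of the 78 genes every adherent library lay below every DMSO-sEV library, which held for 21.7% of all genes.

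Mrpl41, a large-subunit protein particular to mitochondria, changed most. It was at 39.9, 54.1, 40.4, 22.5 and 23.4 CPM in the DMSO-sEV libraries, replicates 1 to 5, and at 11.3, 15.6, 15.2, 14.6 and 17.9 CPM in the adherent ones. All adherent libraries were lower than all DMSO-sEV libraries, and replicates 4 and 5 of the latter came nearest to them. The decrease was 2.42-fold (log2 change -1.27, SE 0.202, adjusted p = 3.53e-06), and it was -0.61 on the log2 scale against replicates 4 and 5 alone. Mrpl13, the counterpart of a bacterial large-subunit protein, was at 338, 414, 328, 200 and 204 CPM after DMSO-sEVs and at 107, 146, 135, 133 and 140 CPM in adherent cells. These groups too were fully apart, with a 2.24-fold decrease (log2 change -1.17, SE 0.144, adjusted p = 6.08e-08; -0.60 against replicates 4 and 5 alone).

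In the small subunit, Mrps25, which is particular to mitochondria, had 60.2, 68.9, 58.1, 42.1 and 37.9 CPM in DMSO-sEV libraries and 23.9, 30, 24.4, 27.5 and 26.4 CPM in adherent ones. The groups did not overlap, and the decrease was 2.02-fold (log2 change -1.01, SE 0.115, adjusted p = 1.29e-08; -0.59 against replicates 4 and 5 alone). Mrps24, whose bacterial counterpart lines the entry of the mRNA channel, was at 55.3, 64.2, 53.4, 35 and 31.8 CPM and at 22.6, 29.2, 25.3, 25.2 and 25.7 CPM. Here the nearest libraries of the groups were only a few CPM apart, and the fold was 1.87 lower (log2 change -0.90, SE 0.138, adjusted p = 2.06e-06; -0.37 against replicates 4 and 5 alone). Exons of Mrpl13 overlap Mtbp and those of Mrps25 overlap Nr2c2 on the opposite strand, and those of Mrps24 overlap Urgcp on its own strand, so reads of these genes may be shared.

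The 3 genes that did not pass at 72 h all belong to the large subunit. Mrpl38, a protein of the central protuberance, was at 62.2 ± 7.47 CPM in DMSO-sEV cells and 62.6 ± 1.12 CPM in adherent cells (SD, n = 5 each; log2 change 0.01, SE 0.069, adjusted p = 0.905). Mrpl43 differed by -0.02 (SE 0.0665, adjusted p = 0.768), and Mrpl45, which anchors the mammalian ribosome to the inner membrane near the exit tunnel, by -0.10 (SE 0.0466, adjusted p = 0.0664).

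The size of the 72 h difference rested on which DMSO-sEV libraries were used. Against replicates 4 and 5 alone, 36 genes fell and 2 rose with a median of -0.21, where 24.7% of all genes fell and 29.2% rose. Against replicates 1 to 3 alone 77 fell and 0 rose with a median of -0.82, where 36.1% of all genes fell and 35.2% rose. The direction of the median was the same in both. The 7 epithelial markers moved as well: 4 fell and 2 rose, and their sum was 3360 to 4280 CPM in DMSO-sEV and 2510 to 2820 CPM in adherent libraries. Of the 12 neutrophil markers only S100a8, a calcium-binding protein, was tested, and it rose from 0.287 ± 0.126 to 1.13 ± 0.191 CPM (SD, n = 5 each; log2 change 1.96, SE 0.288, adjusted p = 1.13e-06), while the summed level of the 12 was 0.308 to 1.01 CPM in DMSO-sEV and 1.33 to 1.92 CPM in adherent libraries. S100a8 passed the count filter only through 27HC-sEV groups of 72 h, where it is high, so its adjusted p is not separate support for the rise. The part of these markers in the result was not tested.

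**Figure D2:**
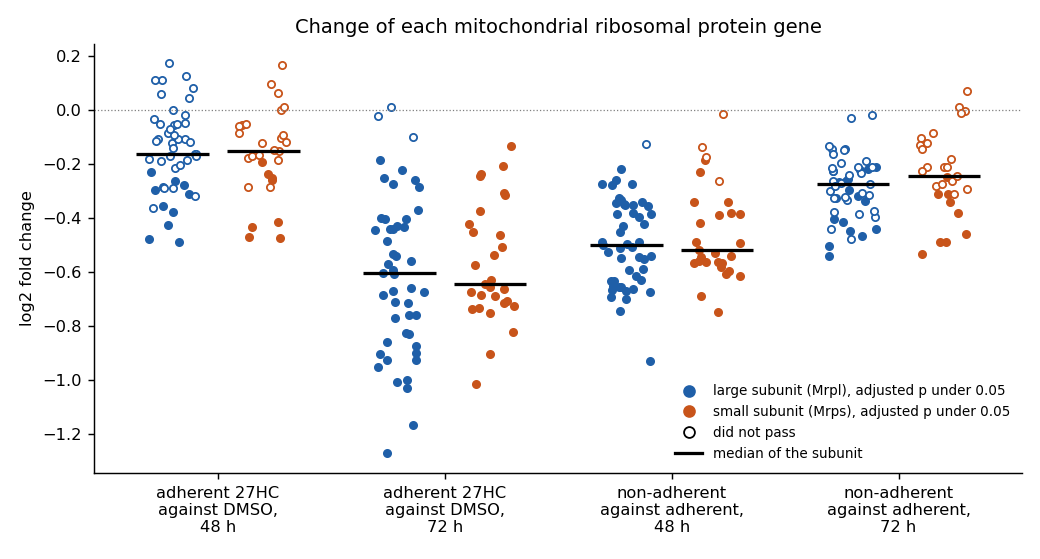
Log2 fold change of each gene in 4 comparisons, large subunit in blue and small subunit in orange; filled points passed the adjusted p of 0.05, open points did not, and black lines are medians. At 72 h against DMSO-sEV cells and at 48 h between non-adherent and adherent cells nearly all points are filled and below 0.

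At 48 h the same comparison gave a smaller and less complete difference. In adherent 27HC-sEV cells 19 of 78 genes fell, 11 in the large and 8 in the small subunit, and 0 rose; since 22.7% of all genes fell and 21.3% rose, the share of members that fell was close to the background. The median log2 change was -0.16, and 67 of 78 estimates lay below 0. For 11 genes every adherent library lay below every DMSO-sEV library, beside 15.6% of all genes. Leaving out 1 library gave 11 genes without DMSO-sEV replicate 2, and 12 without DMSO-sEV replicate 1 or without adherent replicate 5.

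Mrps27, a pentatricopeptide repeat protein of the small subunit, had the smallest adjusted p of the 19. It was at 36.5, 36.8, 37.3, 32.8 and 33.5 CPM in DMSO-sEV libraries at 48 h and at 27.5, 25.3, 24.4, 24.4 and 26.1 CPM in adherent ones. No library overlapped, and the log2 change was -0.47 (SE 0.0534, adjusted p = 2.84e-08), or -0.36 against replicates 4 and 5 alone. Mrps25 changed by the same size (log2 change -0.47, SE 0.114, adjusted p = 0.00117; -0.27 against replicates 4 and 5 alone), from 41 ± 4.87 to 29.5 ± 3.06 CPM (SD, n = 5 each).

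Mrpl42, a large-subunit protein particular to mitochondria, was at 79.1, 74.6, 76.9, 62.8 and 66.4 CPM after DMSO-sEVs and at 46.6, 57.3, 57, 50.5 and 45.6 CPM in adherent cells. The groups were apart, with a log2 change of -0.49 (SE 0.0963, adjusted p = 0.000137; -0.32 against replicates 4 and 5 alone). Mrpl18 of the central protuberance fell by 0.48 on the log2 scale (SE 0.108, adjusted p = 0.000641), to 56.6 from 78.8 CPM, and by 0.34 against replicates 4 and 5 alone. Its exons overlap Tcp1 on the opposite strand. As a set, the 48 h difference was not stable over the DMSO-sEV libraries: against replicates 4 and 5 alone 9 genes fell and 8 rose with a median of 0.02, where 20.6% of all genes fell and 22.3% rose. Against replicates 1 to 3 alone 50 fell and 0 rose with a median of -0.24, where 27.3% of all genes fell and 25.7% rose.

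Among cells that had received 27HC-sEVs, the non-adherent ones had less mitochondrial ribosomal protein mRNA than the adherent ones. No DMSO-sEV library enters the means of this comparison, though the spread was estimated over all groups. At 48 h, 73 of 78 genes were lower in non-adherent cells, 48 of 49 in the large and 25 of 29 in the small subunit, and 0 were higher, where 28.4% of all genes were lower and 25.7% higher. The median log2 change was -0.50 in all 78 genes, -0.50 in the large and -0.52 in the small subunit. For 71 genes the groups did not overlap, beside 23.2% of all genes.

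Mrpl33, a small protein with a bacterial counterpart, differed most. It was at 58.7, 81.2, 77.4, 63.9 and 56.6 CPM in adherent and at 36.4, 35.9, 35.5, 39.6 and 29.4 CPM in non-adherent libraries. All non-adherent values were below all adherent ones, a 1.91-fold difference (log2 change -0.93, SE 0.172, adjusted p = 8.11e-05). Mrpl28 followed with 47.3, 68.3, 63.3, 53.9 and 47.6 CPM against 31.1, 34, 35.5, 37.1 and 29.5 CPM. It too was apart in every library (log2 change -0.74, SE 0.149, adjusted p = 0.000198).

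In the small subunit the largest differences were those of Mrps18c, the paralog that takes the place of the bacterial protein, and Mrps22, which is particular to mitochondria. Mrps18c was at 26.9, 36.3, 35.3, 28 and 26.2 CPM in adherent and at 18.1, 18.5, 19.6, 19.2 and 15.4 CPM in non-adherent libraries. Its log2 change was -0.75 (SE 0.163, adjusted p = 0.000459). Mrps22 had a log2 change of -0.69 (SE 0.133, adjusted p = 0.000127), from 37.7 ± 5.12 to 23.3 ± 1.09 CPM (SD, n = 5 each). The libraries of both genes were fully apart.

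The 5 genes that did not pass at 48 h were Mrpl38 (log2 change -0.13, adjusted p = 0.12), Mrps2 (-0.02, 0.802), Mrps12, a protein of the decoding centre (-0.17, 0.155), Mrps5 and Mrps6.

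At 72 h fewer genes differed between non-adherent and adherent cells, although the change between the times itself passed for Mrps11 alone. Of the 78 genes 27 were lower, 18 large and 9 small, and 0 higher, where 12.8% of all genes were lower and 14.7% higher, and the median log2 change was -0.26. The groups did not overlap for 40 genes, beside 16.3% of all genes, more than passed the test. The count depended on the libraries and terms in the fit. A fit of only these 2 groups called 65 lower, where 23.4% of all genes were lower and 22.4% higher. The replicate block, a term for the shared replicate number, gave 59. Leaving out non-adherent replicates 1, 2, 3 and 4 in turn gave 10, 17, 15 and 3 genes, leaving out adherent replicates 1, 2 and 5 gave 42, 5 and 9, and leaving out replicate 5 of the DMSO-sEV cells at 72 h gave 41. The median was -0.27 in the fit of these groups only and -0.30 with the block. No share of all genes is given with the block or with 1 library left out, so those counts cannot be judged against a background.

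The largest decreases at 72 h were those of Mrpl14, whose bacterial counterpart sits at the subunit interface, and Mrps18c. Mrpl14 was at 26.2, 38.4, 31.7, 33 and 36.9 CPM in adherent and at 21.3, 23.4, 25.5 and 20.9 CPM in non-adherent libraries. The highest non-adherent value was just under the lowest adherent one, and the log2 change was -0.54 (SE 0.16, adjusted p = 0.0166). Mrps18c was at 22, 31.9, 28.2, 27.1 and 30.5 CPM against 18.8, 21.9, 20.7 and 15.6 CPM, with a log2 change of -0.53 (SE 0.175, adjusted p = 0.0271) and no overlap. Mrpl33 (log2 change -0.50, SE 0.183, adjusted p = 0.042) overlapped, since adherent replicate 1 was at 45 CPM and non-adherent replicate 2 at 47 CPM. Mrps33, particular to mitochondria, fell by 0.49 on the log2 scale (SE 0.144, adjusted p = 0.0159), from 36.2 to 25.7 CPM.

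**Figure D3:**
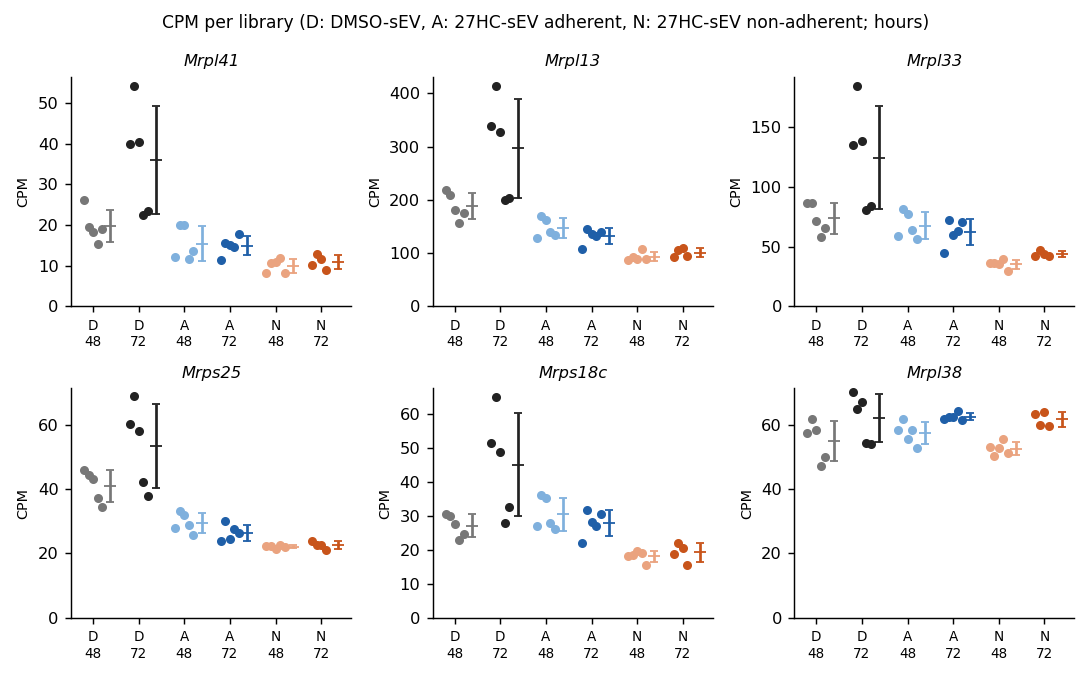
CPM of 6 genes in each library by group, with the group mean and SD; axes start at 0. Mrpl41, Mrpl13, Mrpl33, Mrps25 and Mrps18c peak in DMSO-sEV cells at 72 h, with replicates 4 and 5 below replicates 1 to 3, and Mrpl38 stays between 47.2 and 70.2 CPM in every library.

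From 48 to 72 h, most mitochondrial ribosomal protein genes rose in DMSO-sEV cells, but how many passed depended on the libraries and groups in the fit. With all libraries 61 of the 78 genes rose and 1 fell, Mrps2, where 27.8% of all genes rose and 23.8% fell, and the median log2 change was 0.37. Mrpl41 rose most in the large subunit (log2 change 0.86, SE 0.198, adjusted p = 0.000712) and Mrps18c in the small subunit (0.73, SE 0.16, adjusted p = 0.000426). In spite of this, only 5 genes had every 72 h library above every 48 h library, beside 11.3% of all genes, and a fit of only these 2 groups called 29 higher and 0 lower, where 18.7% of all genes rose and 18.2% fell. With replicates 4 and 5 alone 14 rose and 0 fell with a median of 0.17, where 12.1% of all genes rose and 13.2% fell; Mrpl41 (0.43), Mrps18c (0.35) and Mrps2 (-0.02) were not among them. With replicates 1 to 3 alone 66 rose and 2 fell with a median of 0.48, where 30.1% of all genes rose and 27.5% fell.

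In adherent 27HC-sEV cells, in the fit of all libraries, only Mrps11 changed between 48 and 72 h, where 6.54% of all genes fell and 6.58% rose. It was at 14.7, 17, 13.2, 14.5 and 12.5 CPM at 48 h and at 11.5, 11.5, 10.9, 13.1 and 11.6 CPM at 72 h, with overlapping groups (log2 change -0.29, SE 0.0916, adjusted p = 0.0332). Its exons overlap those of Mrpl46 on the opposite strand. In non-adherent cells only Mrpl38 rose in that fit, where 5.7% of all genes rose and 6.91% fell, from 52.5 ± 1.98 CPM (n = 5) to 61.7 ± 2.25 CPM (n = 4) without overlap (log2 change 0.23, SE 0.0732, adjusted p = 0.035). Every library of 72 h lay below every library of 48 h for 2 members in adherent cells (6.87% of all genes), and above for 14 in non-adherent cells (10.8% of all genes). A fit of only the 2 non-adherent groups called 25 higher and 0 lower, where 13% of all genes rose and 15% fell. The median change of all 78 genes was -0.07 in adherent and 0.14 in non-adherent cells with all libraries in the fit. Whether the change over time differed between DMSO-sEV and non-adherent cells was not tested. Beside these values, S100a8 rose from 48 to 72 h in DMSO-sEV cells (log2 change 1.52, adjusted p = 0.0051), adherent cells (2.44, adjusted p = 1.56e-06) and non-adherent cells (2.11, adjusted p = 1.12e-05). It passed the count filter only through the 27HC-sEV groups of 72 h, so these p-values are not separate support. Its part in the result was not tested.

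The change of a difference between the times was tested with interaction terms. The difference of adherent 27HC-sEV from DMSO-sEV cells grew more negative for 52 of 78 genes and more positive for 0, where 21.4% of all genes grew more negative and 15.9% more positive, with a median of -0.44. Mrpl11, a protein at the base of the stalk on which translation factors act, had the smallest adjusted p in the large subunit (-0.74 on the log2 scale, SE 0.166, adjusted p = 0.00108) and Mrps9 in the small subunit (-0.52, SE 0.126, adjusted p = 0.00199). With replicates 4 and 5 of the DMSO-sEV cells alone 17 grew more negative and 0 more positive with a median of -0.26, where 10.8% of all genes grew more negative and 12.3% more positive. With replicates 1 to 3 alone 68 grew more negative and 0 more positive with a median of -0.56, where 27.1% of all genes grew more negative and 23.1% more positive. The difference of non-adherent from adherent cells changed for Mrps11 alone (0.46, SE 0.136, adjusted p = 0.0465), where 1.18% of all genes grew more positive and 3.41% more negative; Mrpl45, the gene of the large subunit with the smallest adjusted p, did not pass (0.21, SE 0.0681, adjusted p = 0.0854).

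The medians of the large and the small subunit lay close together in each comparison, while those of structural groups within the large subunit lay further apart; differences between these classes were not tested. At 72 h against DMSO-sEV cells the median log2 change was -0.64 for the 30 large-subunit genes with a bacterial counterpart and -0.56 for the 19 without, and -0.67 for 16 and -0.64 for 10 such genes of the small subunit. By place, the 5 stalk proteins had a median of -0.86, the 10 of the central protuberance -0.63 and the 8 of the exit tunnel -0.46; with DMSO-sEV replicates 4 and 5 alone these were -0.33, -0.16 and -0.18. Mrpl12, the stalk protein that also binds the mitochondrial RNA polymerase in human cells, was at 178, 207, 163, 111 and 103 CPM in DMSO-sEV and 69.7, 97, 83.3, 81.2 and 88.7 CPM in adherent libraries at 72 h. Its groups were apart by a few CPM (log2 change -0.86, SE 0.142, adjusted p = 6.91e-06; -0.33 against replicates 4 and 5 alone), and non-adherent cells were lower than adherent ones at 48 h (-0.59, SE 0.144, adjusted p = 0.00123). For 48 h between non-adherent and adherent cells the medians were -0.59 for the stalk, -0.51 for the central protuberance and -0.37 for the exit tunnel.

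The 3 Mrps18 paralogs, which occupy separate places in the ribosome, were lower to different degrees at 72 h against DMSO-sEV cells. Mrps18c fell by 0.69 on the log2 scale (SE 0.159, adjusted p = 0.000433), Mrps18a by 0.32 (SE 0.09, adjusted p = 0.0032) and Mrps18b by 0.21 (SE 0.0561, adjusted p = 0.00207), and the libraries of all 3 overlapped. With replicates 4 and 5 alone none of these 3 passed, with log2 changes of -0.10, 0.00 and -0.09. At 48 h against adherent cells, non-adherent cells were lower for all 3 without overlap, by -0.75, -0.39 and -0.38. Mrps30, in the central protuberance, fell at 72 h against DMSO-sEV cells (log2 change -0.37, SE 0.0792, adjusted p = 0.000171; -0.10 with replicates 4 and 5 alone, which did not pass) and in non-adherent cells at both times (-0.52, adjusted p = 8.75e-06, and -0.25, adjusted p = 0.0336). Mrps36, the dehydrogenase subunit, had a log2 change of -0.64 (SE 0.0978, adjusted p = 1.84e-06; -0.32 with replicates 4 and 5 alone) at 72 h against DMSO-sEV cells and of -0.54 (SE 0.1, adjusted p = 7.83e-05) at 48 h between non-adherent and adherent cells. Neither passed with offsets for transcript length and GC content (-0.12, adjusted p = 0.163, and -0.03, adjusted p = 0.761).

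Over the 29 libraries most members followed a common course. The correlation of each gene's log2 CPM with the median of the other 77 genes was 0.96 at the median and above 0.8 for 73 of 78; it is a description, since the libraries share groups, depth and composition. The lowest were Mrps2 (0.32), Mrpl38 (0.50), Mrpl37 (0.72), Mrps12 (0.75) and Mrpl43 (0.76). Mrps2, the counterpart of a bacterial small-subunit protein, moved otherwise: it was at 50.6, 50.7, 51.8, 52.1 and 50.5 CPM in DMSO-sEV libraries at 48 h and at 44.9, 47.5, 44, 50.6 and 50.1 CPM at 72 h. The 72 h replicates 1 to 3 were thus its low ones, and its decrease over time had a log2 change of -0.11 (SE 0.0459, adjusted p = 0.0497). Adherent 27HC-sEV libraries at 48 h lay between 41.4 and 47.2 CPM, all below those after DMSO-sEVs (log2 change -0.19, SE 0.0459, adjusted p = 0.00112).

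These mRNAs are short, and short transcripts as a class moved in the same direction. The longest annotated transcript had a median of 1327.5 bases in the members and 3072 bases in all genes tested, with a median GC content of 50% and 50.1%. At 72 h against DMSO-sEV cells the median log2 change of all genes ran from -0.30 in the shortest of 4 equal classes by length over -0.06 and 0.06 to 0.21 in the longest, and that of the members was -0.59 (52 genes), -0.67 (11), -0.59 (11) and -0.82 (4). Between non-adherent and adherent cells at 48 h all genes ran from -0.27 to 0.21 and the members stood at -0.52, -0.51, -0.50 and -0.46. Members were thus below the median of all genes in each length class of both comparisons. The classes rest on the longest annotated transcript, which may not be the one expressed in these cells.

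**Figure D4:**
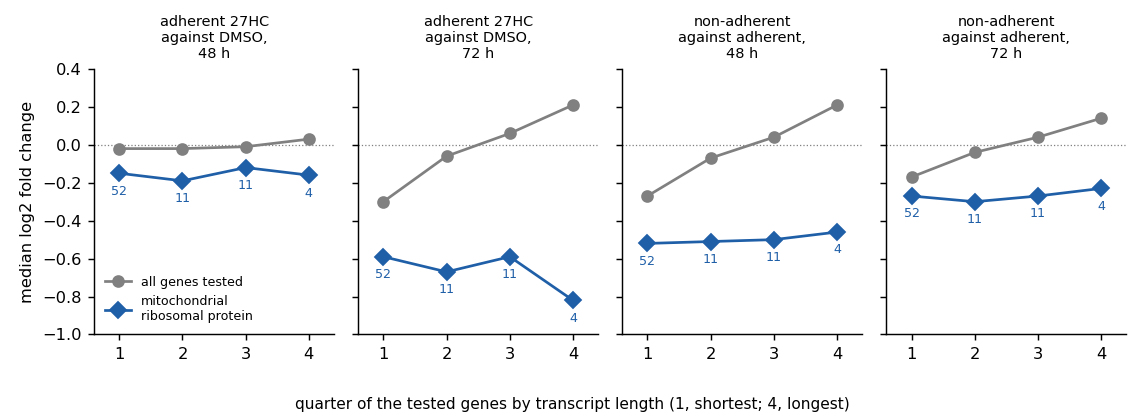
Median log2 fold change of all genes tested (grey circles) and of the mitochondrial ribosomal protein genes (blue diamonds, with their number) in 4 equal classes of transcript length, for 4 comparisons. The grey line rises with length in the later comparisons, and the blue points lie below it in every class.

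With library-wise offsets for transcript length and GC content the medians of the 4 comparisons between groups stayed below 0, and 3 of them came nearer to it. At 72 h against DMSO-sEV cells 58 genes fell and 3 rose (Mrpl9, Mrpl38 and Mrpl43) with a median of -0.26, where 33.3% of all genes fell and 29.6% rose with the same offsets. At 48 h the median hardly moved, at -0.15, and 38 fell and 3 rose, more than without offsets, where 27.9% of all genes fell and 24.4% rose. Between non-adherent and adherent cells at 48 h 47 were lower and 2 higher (Mrps2 and Mrps15) with a median of -0.21, where 23.4% of all genes were lower and 20.8% higher. At 72 h 12 were lower and 2 higher with a median of -0.10, where 9.62% of all genes were lower and 11.8% higher, so that the share of members lower was near the background. The rise in DMSO-sEV cells from 48 to 72 h was 0.09 at the median, with 32 genes higher and 15 lower, where 23.6% of all genes rose and 20.5% fell. Single genes moved by different amounts: at 48 h between non-adherent and adherent cells Mrpl33 went from -0.93 to -0.30 and Mrps36 from -0.54 to -0.03, which did not pass, and at 72 h against DMSO-sEV cells Mrps25 went from -1.01 to -1.18. With the offsets Mrps18a (0.06), Mrps18b (0.14) and Mrps36 (-0.12) no longer passed at 72 h against DMSO-sEV cells.

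**Figure D5:**
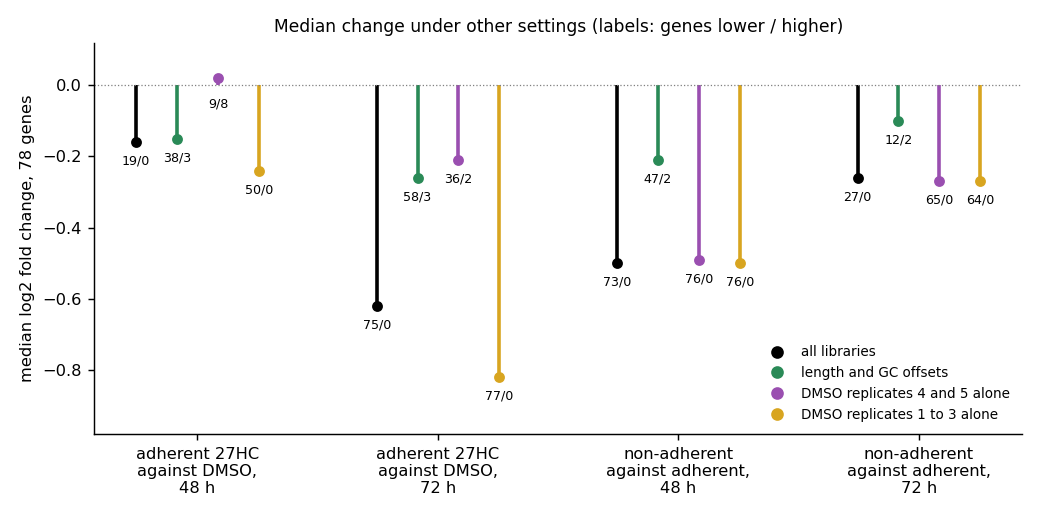
Median log2 fold change of the 78 genes in 4 comparisons with all libraries, with length and GC offsets, with DMSO-sEV replicates 4 and 5 alone and with replicates 1 to 3 alone; labels give the genes lower and higher. The median for adherent against DMSO-sEV cells at 48 h crosses 0 with replicates 4 and 5 alone (0.02), and the others stay below 0.

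The genome around the members was compared with other genes. A gene on the other strand started within 1000 bases, head to head, for 23 of 78 members (29.5%), beside 12.7% of 11741 genes of the expression table. Examples are Mrpl36 with Ndufs6, a subunit of respiratory complex I, and Mrps12 with Sars2, the mitochondrial seryl-tRNA synthetase. Of 22 such neighbours tested, 9 fell and 6 rose at 72 h against DMSO-sEV cells, with a median log2 change of -0.20; these shares, 40.9% and 27.3%, lie near the 33.4% and 32% of all genes. Ndufs6 fell by 0.88 (adjusted p = 1.10e-06) beside Mrpl36 (-0.40), and Klc4 rose by 1.06 (adjusted p = 2.20e-09) beside Mrpl2 (-0.44). Between members with and without the YY1 motif, the median log2 change at 72 h was -0.57 (8 genes) and -0.63 (61 genes); with and without the GABPA motif it was -0.69 (12) and -0.60 (57). Beside those named above, Mrpl9, Mrpl12, Mrpl14, Mrpl36, Mrpl43, Mrps18b, Mrps27 and Mrps30 have exons that overlap a gene on the opposite strand, which for Mrpl36 is Ndufs6 itself, so reads of that pair may be shared. Exons of Mrpl33, Mrps6 and Mrps18c overlap a gene on their own strand. Only genes named for other reasons are listed here. Over all members, 28 overlap a gene on the opposite strand and 8 on the same strand. Exons of 33 members overlap another gene. Of the other 45 members, 43 fell at 72 h against DMSO-sEV cells, where 33.4% of all genes fell. At 48 h, 41 of these 45 were lower in non-adherent than in adherent cells, where 28.4% of all genes were lower. The 72 h count rests on all DMSO-sEV replicates together and is not given for subsets of them. The part of shared reads in the result was not tested.

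Genes that work with the mitochondrial ribosome were followed from lists, whose counts at 72 h against DMSO-sEV cells stand beside 33.4% of all genes lower and 32% higher, or 24.7% and 29.2% with DMSO-sEV replicates 4 and 5 alone. The 5 ribosomal proteins under other names, among them Dap3 and Ptcd3, all fell at 72 h against DMSO-sEV cells (median log2 change -0.61; 3 fell with replicates 4 and 5 alone, median -0.34) and were all lower in non-adherent than in adherent cells at 48 h (median -0.45). Ptcd3, a pentatricopeptide repeat protein of the small subunit, had log2 changes of -0.75 (SE 0.0758, adjusted p = 1.56e-09; -0.53 with replicates 4 and 5 alone) and -0.45 (SE 0.076, adjusted p = 2.87e-05). Of 26 assembly factors 17 (65.4%) fell and 1 rose at 72 h against DMSO-sEV cells (median -0.27), and 10 (38.5%) fell and 1 rose with replicates 4 and 5 alone (median -0.15). Between non-adherent and adherent cells at 48 h 15 (57.7%) were lower and 1 higher (median -0.25), beside 28.4% and 25.7% of all genes. Tfb1m, the methyltransferase that modifies the small ribosomal RNA, fell from 15.9 ± 3.02 to 7.73 ± 0.923 CPM (SD, n = 5 each; log2 change -1.04, SE 0.116, adjusted p = 9.73e-09; -0.79 with replicates 4 and 5 alone).

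Of 17 translation factors tested 12 (70.6%) fell and 2 rose at 72 h against DMSO-sEV cells (median -0.29), and 7 (41.2%) fell and 1 rose with replicates 4 and 5 alone (median -0.16). Pdf, the peptide deformylase, fell by 0.97 on the log2 scale (SE 0.104, adjusted p = 5.18e-09; -0.58 with replicates 4 and 5 alone), and the 2 that rose were Oxa1l, the inner membrane insertase (0.32, adjusted p = 7.64e-06; 0.28 with replicates 4 and 5 alone), and Lrpprc, an mRNA-binding protein (0.16, adjusted p = 0.0257), which did not pass with replicates 4 and 5 alone (adjusted p = 0.992). Among 14 genes of mitochondrial RNA synthesis and processing 8 (57.1%) fell and 1 rose, the RNA polymerase gene Polrmt (log2 change 0.48, adjusted p = 3.58e-05; 0.51 with replicates 4 and 5 alone); with those replicates alone 4 (28.6%) fell and 2 rose, near the background. With the length and GC offsets Polrmt did not pass (0.05, adjusted p = 0.605), and 4 of the 14 fell and 4 rose. Of 11 chaperones and proteases 6 fell and 5 rose; with replicates 4 and 5 alone 4 fell and 5 rose. The protease gene Lonp1 rose by 0.63 (SE 0.0603, adjusted p = 5.38e-10; 0.54 with replicates 4 and 5 alone) and the chaperone gene Hspa9 by 0.41 (SE 0.049, adjusted p = 3.16e-08; 0.46 likewise).

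The regulators moved in both directions, and 4 of 10 rose and 2 fell at 72 h against DMSO-sEV cells; with replicates 4 and 5 alone 3 rose and 4 fell. Ppargc1a, the coactivator of mitochondrial biogenesis, was at 0.00752 ± 0.0168 CPM in DMSO-sEV and 1.12 ± 0.331 CPM in adherent 27HC-sEV cells at 72 h (SD, n = 5 each), a rise that passed the test (adjusted p = 9.76e-11, and 4.49e-07 with replicates 4 and 5 alone) at a very low level. The count filter kept Ppargc1a only through 27HC-sEV groups, where it is high, so these p-values are not separate support for the rise. Gabpb1, a partner of GABPA, fell by 0.47 on the log2 scale (SE 0.066, adjusted p = 6.28e-07; -0.29 with replicates 4 and 5 alone), Nrf1 by 0.17 (adjusted p = 0.0042; -0.30 likewise, and -0.06 with replicates 1 to 3 alone, which did not pass); Gabpa (-0.05, adjusted p = 0.399) and Yy1 (-0.11, adjusted p = 0.052) did not pass.

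Beside them, the nuclear genes of oxidative phosphorylation had median log2 changes near those of the mitochondrial ribosomal protein genes. Those 78 genes stood at -0.13 (48 h) and -0.65 (72 h) in adherent against DMSO-sEV cells, and at -0.55 and -0.36 between non-adherent and adherent cells. The 80 cytosolic ribosomal protein genes were at 0.26 and -0.36, and at -0.63 and -0.37. With DMSO-sEV replicates 4 and 5 alone the median of the oxidative phosphorylation genes was 0.07 at 48 h and -0.20 at 72 h, and that of the cytosolic genes 0.47 and 0.13, so the former changed sign at 48 h and the latter at 72 h. At 48 h against DMSO-sEV cells 19 of the 80 cytosolic genes rose (23.8%) and 3 fell (3.75%), and of the mitochondrial ribosomal protein genes 0 rose and 19 fell (24.4%), where 21.3% of all genes rose and 22.7% fell. The 23.8% and 24.4% are thus near the background. With the length and GC offsets 59 of the 80 rose and 5 fell at 48 h, and 32 rose and 12 fell at 72 h with a median of 0.05. These counts are to be read beside the shares of all genes with the same offsets, given above for both times. The difference between the sets was not tested.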

How the data were processed

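Polyadenylated mRNA of 4T1 cells was sequenced, per the labels' protocols, and 29 libraries in 6 groups were analysed. The deposited tables give estimated counts per gene and log2 CPM values with TMM scaling, both made by the authors; per the submitters' processing notes Salmon 1.10.0 and the build GRCm39 (mm39) were used. How transcripts were summed to genes, and whether strand was used, is not given in the sources used here, so reads of overlapping genes may be shared. Of the deposited estimated counts 40.8% were not whole, and they were rounded.

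Genes with enough reads were kept (edgeR's filterByExpr, minimum count 10, minimum total 15), leaving 13008 of 39253. All groups were fitted together with edgeR 4.0.16 in R 4.3.3 (TMM, robust quasi-likelihood test), and p-values were adjusted over all 13008 genes (Benjamini-Hochberg) in each of 9 comparisons, with a threshold of 0.05. CPM values were computed from the counts, log2 CPM values with a prior count of 2, and fold changes came from the fit with its default settings. The members and lists were chosen with earlier results of these data known. Depth was 18.8 M to 31.4 M reads per library.

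Named genes were, for each subunit, those past the threshold whose mean log2 CPM reached 3 and the largest change (2 per direction between groups, 1 per direction over time), the smallest adjusted p for each change over time, and Mrpl12, Mrps18a, Mrps18b, Mrps18c, Mrps30 and Mrps36; from other lists, up to 2 with the smallest adjusted p. Genes named because they did not pass, rose against their list, neighbour a member, follow the others least or belong to a searched motif were chosen after their values were seen.

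Results were recomputed with DESeq2 1.42.0, with upper-quartile or RLE factors, with counts left unrounded, with limma 3.58.1 (voom, and trend on the deposited log2 CPM), with other filters, a replicate block, the compared groups only, each library left out and, chosen after seeing the data, offsets for length and GC and subsets of the DMSO-sEV replicates, the lists beside the members included. Length and GC came from the longest transcript, coding first, of GENCODE's GRCm38 annotation, matched by Entrez ID or symbol (12397 genes, 95.3%), and the offsets were splines with 4 degrees of freedom in 10765 genes whose mean log2 CPM reached 1. Deviations of same-numbered DMSO-sEV libraries of 48 and 72 h correlated at 0.17 to 0.788 in 5 pairs. The same number was the best match for 3 of the 5. Since replicates 1 to 3 stood apart from 4 and 5 at both times, these correlations do not show a pairing by number. The fit was tested on simulated data.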

Additional observations from a re-analysis of the deposited data

Results flagged for a closer look

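Single libraries stood apart from the rest of their group in 6 of 156 groups examined, which is no more than the about 1 in 20 given by chance. The 156 are not independent, since they share libraries and the large-subunit sum includes Mrpl12 and Mrpl13. Non-adherent replicate 4 at 48 h was high for Mrpl12, at 73.5 CPM with the others between 50 and 56.3, for Mrpl13, at 107 CPM with the others between 88 and 93.4, and for the sum of the large-subunit genes, at 1628 CPM with the others between 1404 and 1468. Non-adherent replicate 4 at 72 h was low for Mrpl12, at 60.1 CPM with the others between 72.1 and 72.8. Non-adherent replicate 3 at 72 h was low for Mrps18b at 42.4 CPM, and non-adherent replicate 1 at 48 h was low for Mrps9 at 42.3 CPM.

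The difference between adherent 27HC-sEV and DMSO-sEV cells changed from 48 to 72 h for 19 of the 24 named genes. Values are those of the interaction term on the log2 scale. Of all genes tested, 21.4% grew more negative and 15.9% more positive. Most of the 24 were named for large changes or small adjusted p in these same data, so their share cannot be judged against that background. The count over all members depended on which DMSO-sEV replicates were used, as given with the interaction terms above. In the large subunit the change was -0.91 for Mrpl41, -0.88 for Mrpl33, -0.81 for Mrpl13, -0.79 for Mrpl28, -0.74 for Mrpl11, -0.58 for Mrpl14, -0.54 for Mrpl12, -0.44 for Mrpl42 and -0.18 for Mrpl45. Among genes with small-subunit names it was -0.86 for Mrps18c, -0.75 for Mrps24, -0.60 for Mrps22, -0.58 for Mrps33, -0.54 for Mrps25, -0.52 for Mrps9, -0.48 for Mrps36, -0.47 for Mrps11, -0.44 for Mrps30 and -0.28 for Mrps27. The difference between non-adherent and adherent cells changed by 0.46 for Mrps11.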

How the results depend on the processing

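The counts of genes that passed moved by more than 1.5 times under some alternatives, and the cause was not tested. Here genes lower and higher are counted together, so a count is not the size of a decrease. The directions, and the shares of all genes to read beside the counts, are given with the results above for many of these settings. Where no share is given, here or above, a count cannot be judged against all genes and shows only that the number moved. For adherent 27HC-sEV against DMSO-sEV cells at 48 h, where 19 passed, it was 41 with length and GC offsets, 50 with DMSO-sEV replicates 1 to 3 alone and 45 with both, and 11 to 26 with 1 library left out. At 72 h, where 75 passed, it was 38 with replicates 4 and 5 alone and 69 to 76 with 1 library left out. It was also 38 with those replicates and offsets together. The split into lower and higher is not given for that setting, so the equal count does not show an equal decrease. Between non-adherent and adherent cells at 48 h the 73 became 69 to 73 with 1 library left out and moved by no more than 1.5 times in any alternative run. With offsets fewer genes passed and the median decrease was smaller, as given with the offsets above. At 72 h the 27 became 59 with the replicate block, 65 with only the groups compared, 14 with offsets, 64 with DMSO-sEV replicates 1 to 3 and 65 with replicates 4 and 5 alone, and 3 to 42 with 1 library left out.

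Over time in DMSO-sEV cells the 62 became 29 with only the groups compared, 14 with replicates 4 and 5 alone, 12 with offsets as well, and 42 to 70 with 1 library left out. The 52 changes of the difference from DMSO-sEV cells became 29 with offsets, 17 with replicates 4 and 5 alone, 10 with both, and 36 to 62 with 1 library left out. The single gene in adherent cells over time became 0 without a filter, 2 with RLE factors, a 1 CPM filter or only the groups compared, 3 with DESeq2 or the replicate block, 4 with either subset of DMSO-sEV replicates, 5 with offsets, 7 with offsets and either subset, and 0 to 3 with 1 library left out. In non-adherent cells the single gene became 0 without a filter, 2 with upper-quartile factors, DESeq2 or a 1 CPM filter, 25 with only the groups compared, 4 with offsets, 15 and 13 with replicates 1 to 3 and 4 and 5 alone, 11 and 8 with offsets as well, and 0 to 2 with 1 library left out. The single change of the non-adherent difference became 0 with voom or without a filter, 3 with DESeq2, 5 with only the groups compared, 2 with offsets, 11 and 10 with the subsets, 7 and 2 with offsets as well, and 0 to 3 with 1 library left out.

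For the 47 values of named genes, 1869 of 2068 alternative values kept the direction and the side of the threshold, 119 lost the call, 45 gained it and 35 changed sign. Mrps18a, at -0.00 against DMSO-sEV cells at 48 h, was 0.00 with RLE factors, DESeq2 and limma-trend, 0.01 with a 1 CPM filter and with offsets, 0.02 with only the groups compared, 0.03 with upper-quartile factors, 0.05 with offsets and replicates 1 to 3, 0.12 with replicates 4 and 5, and -0.03 to 0.03 with 1 library left out. At 72 h it was 0.06 with offsets, 0.00 with replicates 4 and 5 alone, and 0.06 and 0.07 with offsets and replicates 4 and 5 or 1 to 3. Mrps18b was 0.01 at 48 h with replicates 4 and 5, 0.14 at 72 h with offsets and 0.27 with offsets and replicates 1 to 3, and 0.08, 0.07 and 0.08 between non-adherent and adherent cells at 72 h with offsets, alone or with replicates 4 and 5 or 1 to 3. Mrps30 was -0.02 at 48 h with replicates 1 to 3, Mrps36 was 0.00 at 48 h with replicates 4 and 5, and 0.06, 0.05 and 0.06 between non-adherent and adherent cells at 72 h with offsets in the same order.

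The replicate block gave 67 genes in place of 62 for DMSO-sEV cells over time. In the other comparisons it changed a count by over 1.5 times for non-adherent against adherent cells at 72 h (59) and for adherent cells over time (3). A pairing of samples by replicate number was not shown. For pairs of groups other than the DMSO-sEV cells of 48 and 72 h, correlations of same-numbered deviations ran from -0.362 to 0.693. Counting noise limits genes near 10 CPM most.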
